A study of Homo sapiens with 4 samples.

Results

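In MOLM13 cells treated with the BET inhibitor OTX015, alone or together with the Menin inhibitor SNDX-50469, 756 acetylated regions outside protein-coding genes carried an H3K27ac peak under both treatments. MOLM13 is a human acute myeloid leukaemia line that carries the fusion MLL-AF9. Treatment lasted 16 hours, at 500 nM OTX015 in either group and with SNDX-50469 added at 500 nM in one of them. From each treatment 1 chromatin immunoprecipitation library was made, so every group contained OTX015 and no replicate of either existed. Untreated cells and cells given only SNDX-50469 were not analysed here, and no values of the 2 input libraries were used. The labels name OTX015 as the treatment of the first library, whereas the study's text describes its H3K27ac comparison with SNDX-50469 as the single agent; the labels were followed.

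The regions were chosen by merging the overlapping peaks of both lists on 16 chromosomes (1 to 4, 7, 9 to 12, 14 to 18, 21 and 22). This gave 29190 merged regions, of which 2768, or 9.48%, held a peak of both lists. A shared region was kept when it overlapped no protein-coding gene body and lay more than 2.5 kb from every protein-coding 5′ end, and 38 pericentromeric or repeat-like regions were set apart. The 756 regions left were 7.44% (Wilson 95% interval, 6.94 to 7.97) of the 10163 intergenic merged regions, beside 22.9% (21.5 to 24.3) of the merged regions at promoters and 7.35% (6.94 to 7.78) of those inside gene bodies. Intervals here cover counting over regions only. Because the presence of a peak in both lists chose the regions, their cover and enrichment in the same lists are given as a description, without a test.

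Acetylation of histone H3 at lysine 27 marks active promoters and active distal enhancers, stretches of DNA to which transcription factors bind and from which they raise transcription of genes that may lie far away. BET proteins bind acetylated histones through their bromodomains and carry the elongation machinery to such sites. Menin anchors MLL proteins and MLL fusion proteins to chromatin, mainly at a set of developmental and self-renewal genes, and enhancers of myeloid cells are typically bound by PU.1, C/EBP, RUNX and AP-1 factors.

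In both lists the cell type markers were those of a myeloid cell. Peaks lay within 1 kb of the 5′ ends of SPI1 (PU.1), MPO (myeloperoxidase), LYZ (lysozyme) and CSF3R (the G-CSF receptor) in both. A peak at CEBPE, a granulocyte factor, was called with the combination only, and ITGAM and IRF8 had no peak within 1 kb in either list. The T cell, B cell, liver and islet genes CD3E, MS4A1, ALB and INS had none. The number of reads per library is unknown, but solving the peak values for a constant background gave 0.764 fragments per base for OTX015 and 1.47 for the combination, a ratio of 1.92. The weakest peaks therefore stood 6.54 times above background in the OTX015 list and 4.76 times in the combination list, while on the 16 chromosomes the lists held 15440 and 17246 peaks and covered 7.35 Mb each. The part of this difference in depth in the values that follow was not tested.

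Intergenic DNA here still contained many noncoding genes, and 52 of the 756 regions (6.88%) held the annotated 5′ end of 59 of them. The RefSeq promoter table (GRCh38.p14) holds 1 start per gene, with 250 bases before to 50 after it, and for 37 noncoding genes the whole window lay within a shared region, 33 regions in all. For 34 of them it belonged to a gene end counted above, and for 3 it did not; that of LINC-PINT lies inside its gene record. The windows below are chosen from the regions described further on: 2 wide regions of chromosome 1 beyond IRF2BP2, a broad stretch between TBC1D5 and SATB1, the region of highest enrichment near NRROS, the LINC-PINT region and 2 regions downstream of IRF8. Each is printed 5′ to 3′ on the strand of the noncoding gene. Capitals mark 4 motifs of myeloid factors, searched on both strands: GAGGAA, the core bound by ETS factors such as PU.1; TGTGGT, bound by RUNX factors; TGANTCA, bound by AP-1; and TTGCNNAA, bound by C/EBP factors.
LINC01132, chr1:234723792-234724091, plus strand: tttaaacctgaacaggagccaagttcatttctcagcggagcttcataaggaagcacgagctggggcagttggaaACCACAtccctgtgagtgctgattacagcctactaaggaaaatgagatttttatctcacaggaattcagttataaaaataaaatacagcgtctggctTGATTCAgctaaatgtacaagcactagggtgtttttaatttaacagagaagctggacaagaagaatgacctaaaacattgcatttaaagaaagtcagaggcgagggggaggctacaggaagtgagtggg
LINC03108, chr1:234980727-234981026, minus strand: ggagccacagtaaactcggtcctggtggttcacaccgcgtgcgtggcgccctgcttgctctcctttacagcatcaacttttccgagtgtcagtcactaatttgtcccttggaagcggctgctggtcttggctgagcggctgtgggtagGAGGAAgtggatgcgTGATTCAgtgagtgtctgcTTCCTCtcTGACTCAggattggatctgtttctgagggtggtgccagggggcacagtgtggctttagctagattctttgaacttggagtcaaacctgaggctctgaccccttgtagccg
BALR6, chr3:17962302-17962601, plus strand: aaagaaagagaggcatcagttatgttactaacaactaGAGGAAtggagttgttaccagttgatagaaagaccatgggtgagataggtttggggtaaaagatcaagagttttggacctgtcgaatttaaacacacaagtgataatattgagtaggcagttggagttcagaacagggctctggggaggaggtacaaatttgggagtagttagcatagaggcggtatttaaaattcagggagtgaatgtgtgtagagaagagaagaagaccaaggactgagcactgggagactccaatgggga
LINC01063, chr3:196632538-196632837, minus strand: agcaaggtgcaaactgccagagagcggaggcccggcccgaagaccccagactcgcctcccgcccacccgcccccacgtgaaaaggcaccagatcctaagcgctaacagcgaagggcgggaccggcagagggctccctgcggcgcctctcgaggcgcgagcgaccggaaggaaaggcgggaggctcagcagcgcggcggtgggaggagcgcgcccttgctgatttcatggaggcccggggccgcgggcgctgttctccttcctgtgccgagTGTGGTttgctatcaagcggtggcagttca
LINC-PINT, chr7:130913261-130913560, minus strand: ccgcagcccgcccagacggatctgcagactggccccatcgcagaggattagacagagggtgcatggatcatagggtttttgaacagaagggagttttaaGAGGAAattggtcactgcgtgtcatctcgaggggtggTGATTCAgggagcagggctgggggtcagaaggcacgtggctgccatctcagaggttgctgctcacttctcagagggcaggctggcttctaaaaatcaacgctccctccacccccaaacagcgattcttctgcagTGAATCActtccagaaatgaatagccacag
LOC105371388, chr16:85945129-85945428, plus strand: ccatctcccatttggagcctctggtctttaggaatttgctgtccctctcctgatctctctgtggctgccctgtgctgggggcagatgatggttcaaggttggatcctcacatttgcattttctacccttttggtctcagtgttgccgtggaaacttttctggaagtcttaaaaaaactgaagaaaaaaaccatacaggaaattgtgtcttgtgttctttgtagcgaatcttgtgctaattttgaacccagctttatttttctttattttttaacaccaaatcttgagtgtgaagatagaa
LOC124903741, chr16:85985248-85985547, minus strand: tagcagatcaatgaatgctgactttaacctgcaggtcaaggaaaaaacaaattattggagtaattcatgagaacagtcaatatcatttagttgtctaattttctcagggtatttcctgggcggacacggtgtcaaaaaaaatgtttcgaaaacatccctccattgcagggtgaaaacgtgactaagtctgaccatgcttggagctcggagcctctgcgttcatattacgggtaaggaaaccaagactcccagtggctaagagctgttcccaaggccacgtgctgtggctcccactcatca
Of the 37 windows, 3 pairs on opposite strands overlapped, so that a site in both is counted 2 times in the shares that follow; the LINC-PINT window shares its GAGGAA and both AP-1 matches with that of LINC00513. GAGGAA occurred in 40.5% of the 37 windows, beside 27.5% of the 9772 windows of all long noncoding RNA genes on these chromosomes. The AP-1 letters occurred in 21.6% against 10.4%, the RUNX letters in 18.9% against 16.2%, and the C/EBP letters in 16.2% against 13.5%. The windows in shared regions also had a median GC content of 55.0% against 50% and a median of 7 CpG against 5. The window of LINC03108 held GAGGAA and TGANTCA 2 times each, and that of LINC-PINT held GAGGAA with 2 AP-1 matches. Neither of the windows downstream of IRF8 held any of the 4 motifs in these 300 bases. A match is a run of letters and was not tested as a binding site.

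Only 4 of the regions covered a microRNA gene, giving 6 mature microRNAs with 6 different seeds. Their RefSeq sequences (GRCh38.p14) are shown 5′ to 3′ with the seed, bases 2 to 8, in capitals, since the seed is the part that pairs with target messages.
hsa-miR-4437, chr2:181305593-181305613, minus strand: uGGGCUCAggguacaaagguu
hsa-miR-12124, chr3:128846872-128846891, plus strand: gAGGAAAUgcagaugcugga
hsa-miR-1915-3p, chr10:21496576-21496595, minus strand: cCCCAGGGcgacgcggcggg
hsa-miR-1915-5p, chr10:21496609-21496630, minus strand: aCCUUGCCuugcugcccgggcc
hsa-let-7i-5p, chr12:62603691-62603712, plus strand: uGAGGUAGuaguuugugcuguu
hsa-let-7i-3p, chr12:62603747-62603768, plus strand: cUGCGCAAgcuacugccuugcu
The let-7i region, 135 kb from the nearest protein-coding 5′ end (MON2), was covered by peaks over 1.76 kb in OTX015 cells and 1.63 kb with both inhibitors. It also held the 5′ end of the host gene MIRLET7IHG. let-7 microRNAs restrain proliferation and growth genes in many cell types. The miR-1915 region lay 28.0 kb from SKIDA1 and was covered over 1.31 kb and 0.470 kb. The miR-4437 region, 150 kb from the integrin gene ITGA4, had 2.37 kb and 3.10 kb, and the miR-12124 region, 29.9 kb from ACAD9, had 6.24 kb and 5.75 kb. Of the 4 regions, only that of miR-1915 differed by 2-fold or more.

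Cover, the summed length that peaks occupy within a region, was nearly the same under both treatments when summed over the 756 regions. It was 952 kb under OTX015 and 959 kb under the combination, a ratio of 1.01, and 644 kb lay under peaks of both, which was 67.7% of the OTX015 cover and 67.1% of the combination cover. The mean fold that the peak caller gave these peaks, pileup over background, was 4.25 and 3.96. Shared promoter regions had a cover ratio of 0.939 and shared regions inside gene bodies 0.904. Individually, 392 intergenic regions had more cover with the combination, 363 more with OTX015 and 1 had equal cover.

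At least 2-fold more cover with the combination was found in 146 intergenic regions (19.3%, 16.7 to 22.3), where the share over all 2642 shared regions was 16.8%. At least 2-fold more with OTX015 was found in 155 (20.5%, 17.8 to 23.5), where it was 22.5% over all shared regions. Both shares were near the background, so regions that differed strongly were about as frequent here as elsewhere. Across the 756 regions the covers in both lists had a Spearman rho of 0.555 and the enrichments 0.367; neighbouring regions share libraries and background, and a region enters only with a peak in each. Enrichment was the mean fold of a region's peaks, weighted by peak length and recalculated as pileup over the solved background. Its median was 7.41 with OTX015 and 5.32 with the combination. The median ratio of 0.721 was close to the 0.728 between the weakest peaks of the lists, and a change in enrichment and the difference in threshold cannot be told apart.

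**Figure D1:**
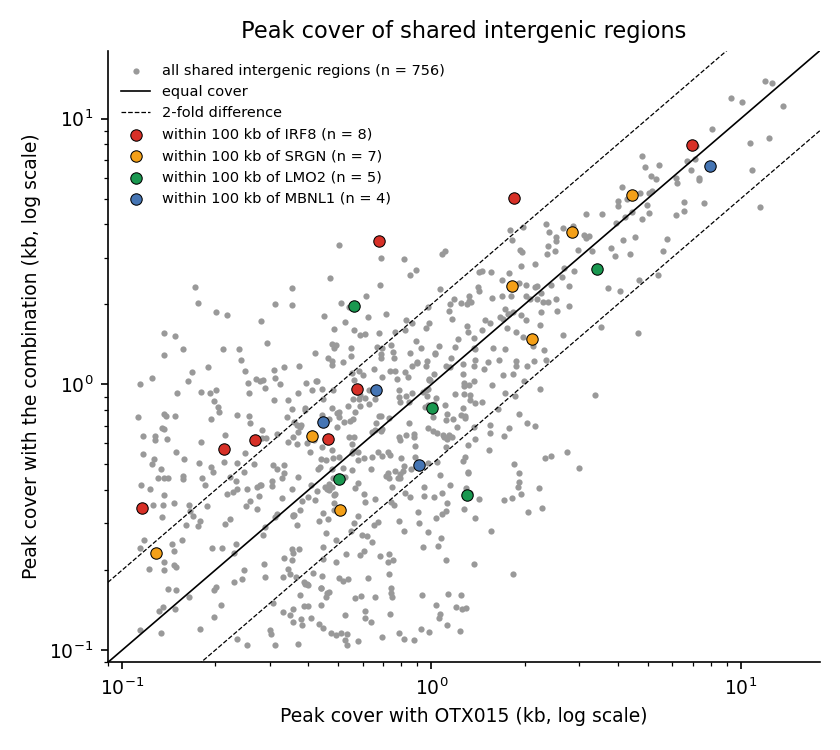
Each point is 1 of the 756 shared intergenic regions, with its peak cover in kb with OTX015 on the x axis and with the combination on the y axis, both on log scales, 1 library per treatment. The solid line marks equal cover and the dashed lines a 2-fold difference; wide regions lie near the line, narrow ones scatter on both sides, and all 8 regions near IRF8 lie above it.

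The lists overlapped most in the widest regions. The median region was 1.08 kb long (0.149 to 14.3 kb) and 44 exceeded 5 kb. In the narrowest 189 regions, up to 0.628 kb, the stretch under peaks of both lists was 54.3% of the OTX015 cover, and 50 regions had at least 2-fold more cover with OTX015 and 34 at least 2-fold more with the combination. Between these and the widest lay 2 further sets of 189 regions, with 54.2% and 54.9%. In the widest 189 regions, from 1.92 to 14.3 kb, it was 75.2%, and 21 and 23 regions differed by 2-fold. These widest regions held 604 kb of the OTX015 cover and 608 kb of the combination cover.

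Shared intergenic regions lay closer to genes than regions of a single list. Their median distance to the nearest protein-coding 5′ end was 33.6 kb, against 63.7 kb for intergenic regions with OTX015 peaks only and 42.8 kb for those with combination peaks only. Within 10 kb lay 140 (18.5%), against 12.3% of the regions with OTX015 peaks only and 16.3% of those with combination peaks only. Beyond 100 kb lay 148 (19.6%), against 38.8% and 28.2%, and beyond 500 kb lay 5. A noncoding gene was overlapped by 270 regions (35.7%, 32.4 to 39.2), against 28.7% (27.4 to 30.1) and 28.1% (26.9 to 29.4) of the regions with OTX015 or combination peaks only, and 255 of the 270 overlapped a long noncoding RNA gene. The shared regions were also the wider ones, with a median of 1.08 kb against 0.188 and 0.207 kb, and a wide region overlaps a gene more readily. Within the shared regions the proportion over noncoding genes was 28.6% in the narrowest 189 and 44.4% in the widest 189. The part of width in the difference from regions of a single list was not tested.

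The distance rule cut through a continuum. Just inside it were regions 2.57 kb from NRROS, which controls oxidant production and TGF-beta activation in myeloid cells, 2.61 kb from CSK, a kinase that inhibits Src kinases, and 2.64 kb from CDT1, a DNA replication licensing factor. Their cover was 7.33, 1.73 and 1.15 kb with OTX015, and with the combination 5.86, 1.36 and 1.16 kb. Just outside were regions at 2.50 kb from GPR65, 2.49 kb from MEFV and 2.48 kb from LOC124904102, with 0.239, 0.228 and 0.420 kb with OTX015, and with the combination 0.388, 0.938 and 0.115 kb.

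Many regions lay in groups. With gaps of up to 50 kb the 756 regions formed 393 clusters, of which 226 were single regions and 26 had 5 or more members, together 188 regions (24.9%). A neighbour within 12500 bases, the distance used to stitch enhancers into super enhancers, was found for 476 regions (63.0%).

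The cluster with the largest cover lay on chromosome 1 between IRF2BP2, a transcriptional corepressor that partners IRF2, and TOMM20, a mitochondrial import receptor. Its 14 regions spanned 175 kb and were covered over 30.4 kb for OTX015 and 36.1 kb for the combination, 10 of the 14 more with the combination. The surrounding 10 Mb were also covered more, at 1.04% with OTX015 and 1.51% with the combination. Its widest region, chr1:234972621-234984619 over LINC03108, had 10.1 kb and 11.5 kb. With peaks of both lists held to a common enrichment over background, that region had 10.1 and 9.88 kb, the other direction. Of the cluster, 2 regions remained there, with 14.8 and 15.1 kb. Nearer IRF2BP2, chr1:234721256-234727925 over LINC01132 had 5.45 kb and 6.67 kb, and chr1:234769180-234783352, 159 kb from the gene, had 12.6 kb and 13.7 kb and the highest enrichment of the combination list among the 756 regions, 8.98, with 9.66 with OTX015. About 1 Mb further on, chr1:235935231-235947396, 51.5 kb from LYST, a regulator of lysosome and granule size, had 9.29 kb in 4 OTX015 peaks and 11.9 kb in 1 combination peak.

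Around IRF8, an interferon regulatory factor that directs monocyte and dendritic cell fate, every shared intergenic region had more cover with the combination. Of 8 regions within 100 kb of its 5′ end, 2 lay upstream and 6 formed a cluster 24.1 to 78.0 kb downstream. The region chr16:85928830-85933863, 29.7 kb downstream, was covered over 1.85 kb in 3 OTX015 peaks and 5.03 kb in 1 combination peak. At chr16:85944226-85947678, 45.1 kb downstream over LOC105371388, cover was 0.677 kb and 3.45 kb. The widest region, chr16:85977178-85986113, 78.0 kb downstream over LOC124903741, had 6.95 kb and 7.99 kb. The other 5 ranged from 0.116 to 0.574 kb with OTX015 and from 0.344 to 0.960 kb with the combination.

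In sum the 8 regions had 11.1 kb under OTX015 against 19.6 kb under the combination, while the 10 Mb around the downstream cluster were covered at 1.30% and 1.29%. Enrichment over background was 6.54 to 8.38 with OTX015 and 5.19 to 6.98 with the combination. At a −log10 q of 2 or more, a stricter limit on the false discovery rate, only the widest region remained, with 3.83 and 7.99 kb, and at a common enrichment it remained with 6.95 and 7.99 kb.

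**Figure D2:**
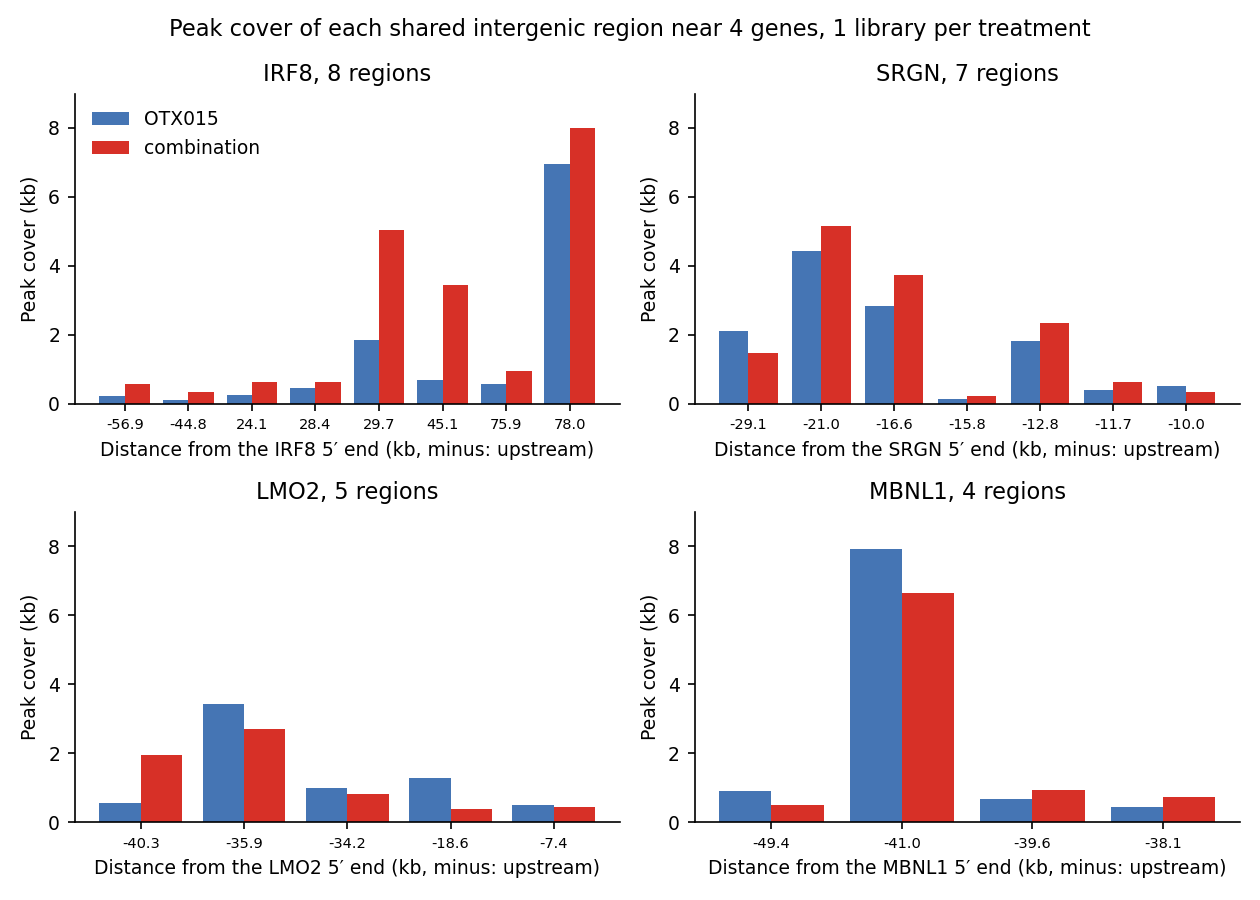
Bars give the peak cover in kb of each shared intergenic region within 100 kb of IRF8, SRGN, LMO2 and MBNL1, ordered by distance from the gene's 5′ end in kb (negative values upstream), with OTX015 in blue and the combination in red, 1 library per treatment. All 8 IRF8 regions have the taller bar with the combination, whereas the other genes have regions of both directions.

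Other clusters differed in direction. ZFP36L2, which promotes decay of AU-rich messages, had 11 regions within 42.9 kb, covered over 5.73 kb under OTX015 and 12.0 kb under the combination. Of the 11, 10 had more cover with the combination, and the surrounding 10 Mb were also covered more, at 0.488% and 0.774%. The 1 region left at a −log10 q of 2 or more had 0.188 and 0.348 kb, and the 1 at a common enrichment had 0.139 and 0.761 kb. The 9 regions between FCHSD2 and P2RY2, a nucleotide receptor, had 13.3 kb and 17.9 kb, but at a −log10 q of 2 or more the 2 remaining regions had 7.41 kb and 5.53 kb. The 9 regions between TLE3 and UACA had 6.52 kb and 9.54 kb, and 6 regions upstream of RUNX3, a Runt factor of blood and immune cells, had 5.30 kb and 7.79 kb. No UACA region remained at a −log10 q of 2 or more or at a common enrichment. The 1 RUNX3 region left at a −log10 q of 2 or more had 0.226 and 4.02 kb, and none remained at a common enrichment. The 11 regions around DDIT4, a stress-induced inhibitor of mTORC1, and DNAJB12, an endoplasmic reticulum cochaperone, had 20.8 kb and 15.3 kb. The 6 regions between RALGPS2 and FAM20B, a kinase of proteoglycan synthesis, had 7.00 kb and 3.60 kb, all 6 with more cover under OTX015. None of these 6 remained at a −log10 q of 2 or more or at a common enrichment. At ZNF516, a zinc finger gene, 5 regions had 13.99 kb and 9.44 kb, although at a common enrichment the 1 remaining region had 1.32 kb and 2.07 kb. The 5 regions between PHLPP1 and BCL2, the apoptosis inhibitor targeted by venetoclax, had 7.96 kb and 8.54 kb, but the 1 region left at a −log10 q of 2 or more, and at a common enrichment, had 6.18 kb and 5.71 kb.

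The cluster with the most regions, 17 on chromosome 17 beyond the chemokine gene CCL4, had 13.999 kb for OTX015 and 21.5 kb for the combination. It lies among near-identical copies of CCL3, CCL4 and TBC1D3 genes (CCL3L3, CCL4L2, TBC1D3I), where reads may be assigned to the wrong copy, and is reported as uncertain.

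**Figure D3:**
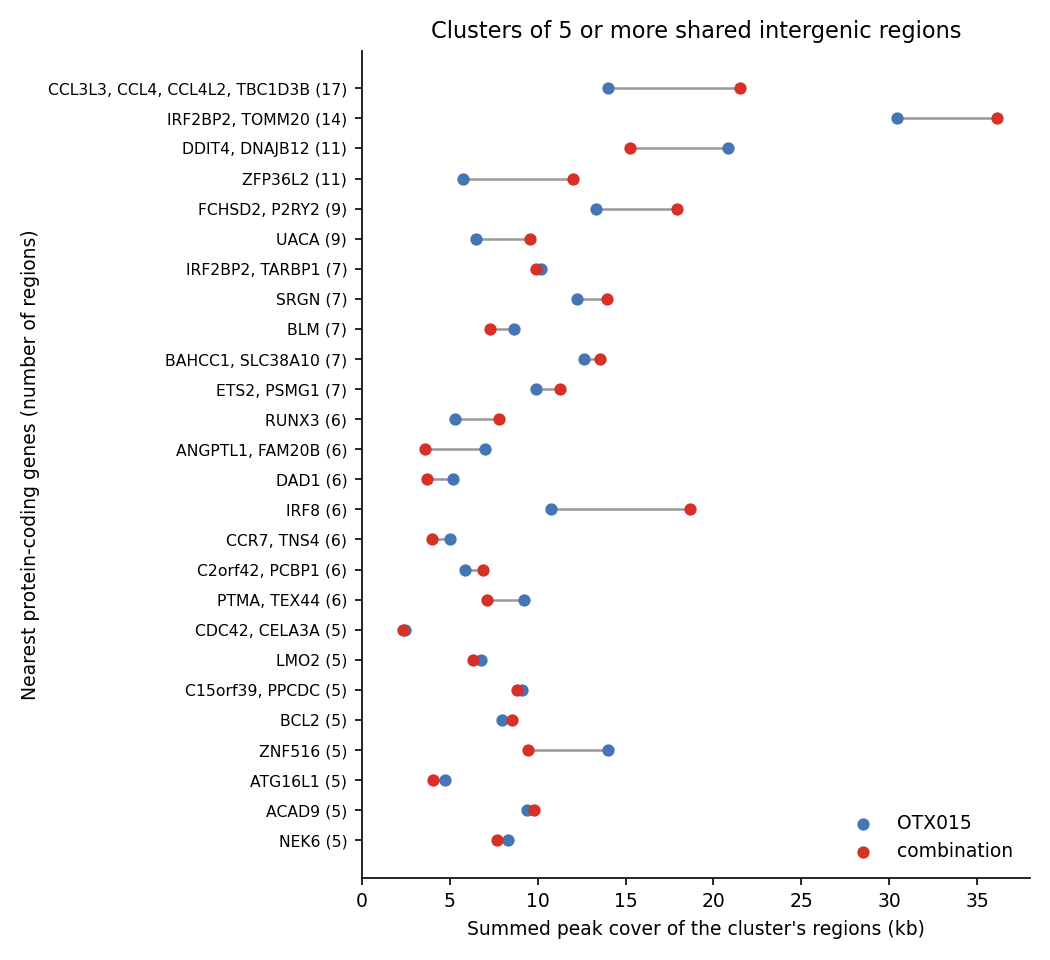
The 26 clusters of 5 or more shared intergenic regions are listed by their nearest protein-coding genes with the number of regions in parentheses, and the x axis gives their summed peak cover in kb, with OTX015 in blue and the combination in red, 1 library per treatment. Red lies far to the right of blue at the CCL4, ZFP36L2 and IRF8 clusters and to its left at the DDIT4, FAM20B and ZNF516 clusters.

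The widest shared regions were ranked by the smaller of the covers in both lists, so all are wide in each. Between RNF144A and ID2, an inhibitor of basic helix-loop-helix factors, chr2:8533139-8546938 had 12.0 kb in OTX015 cells and 13.8 kb with both inhibitors. Between FANCL and BCL11A, a transcription factor of blood and lymphoid development, chr2:60092974-60107294 had 13.7 kb and 11.2 kb. Near SLC1A4, a neutral amino acid transporter, chr2:64941002-64949206 had 7.12 kb and 7.03 kb. Between ETS2, an ETS transcription factor, and PSMG1, chr21:38983054-38991749 had 7.14 kb and 7.88 kb. Over BALR6, a long noncoding RNA gene between TBC1D5 and the chromatin organiser SATB1, chr3:17979669-17989307 had 8.08 kb and 9.18 kb. The neighbouring chr3:17960144-17970988, also over BALR6, had 10.8 kb in 1 OTX015 peak and 6.39 kb in 5 combination peaks. At a −log10 q of 2 or more the first had 7.93 and 5.86 kb and the neighbour 10.8 and 0.399 kb, so the opposite directions of these adjacent stretches did not hold there.

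The largest excess of cover with OTX015 lay 208 kb from CYP26B1, which degrades retinoic acid, where chr2:71928559-71940056 had 11.5 kb in 1 peak with OTX015 and 4.66 kb in 4 peaks with the combination. A region 35.4 kb from IGLL5, just beyond the immunoglobulin lambda locus, had 12.3 kb and 8.47 kb, one 14.98 kb from SKIDA1 had 4.64 kb and 1.56 kb, and one 57.9 kb from POLG, the mitochondrial DNA polymerase, had 7.63 kb and 4.83 kb. Near METRNL, a secreted factor, 10.7 kb and 8.09 kb were covered, and a ZNF516 region had 5.41 kb and 2.58 kb. In 7 of the 8 regions with the largest OTX015 excess, 1 uninterrupted OTX015 peak was set against 2 to 5 combination peaks. At a −log10 q of 2 or more the SKIDA1 region did not remain. At a common enrichment the CYP26B1, SKIDA1, POLG and ZNF516 regions and chr3:17960144-17970988 over BALR6 did not remain. The IGLL5 region had 12.3 and 0.114 kb there.

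In the direction of the combination, besides both IRF8 regions and that near LYST, a region 240 kb from RAB4A, a GTPase of endosome recycling, had 0.504 kb and 3.33 kb. Regions near KLF13, a Krüppel-like factor, and P2RY2 had 4.81 and 7.22 kb and 0.172 and 2.33 kb. Near MEFV, which encodes the inflammasome sensor pyrin, cover was 0.688 kb and 2.98 kb. The RAB4A, P2RY2 and MEFV regions did not remain at a −log10 q of 2 or more, where the KLF13 region had 0.709 and 6.22 kb. At a common enrichment none of these regions near RAB4A, KLF13, P2RY2 and MEFV remained.

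The region with the highest mean enrichment over both lists, chr3:196629323-196637122 over LINC01063 and 2.57 kb from NRROS, stood 12.2 times above background with OTX015 and 8.10 times with the combination. A region of 1.31 kb that lay 18.01 kb from ADRB1, the beta-1 adrenergic receptor, had 12.2 and 6.46 although its cover was only 0.686 and 1.30 kb. Regions near DNAJB12 and SEPHS2, an enzyme of selenoprotein synthesis, had 11.02 and 7.17, and 11.2 and 6.93.

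Genes were next assigned to regions by position alone, within 100 kb of the 5′ end, which does not show that a region regulates a gene. Of all 14132 protein-coding genes on the 16 chromosomes, 951, or 6.73%, had at least 1 shared intergenic region in reach, 466 with more summed cover with the combination and 485 with more with OTX015. Such a region was found for 8 of 30 monocyte and neutrophil effector genes, 6 of 24 myeloid transcription factors, 3 of 12 granule genes and 4 of 26 MLL fusion targets. It was also found for 4 of 21 T and NK cell genes, 3 of 21 erythroid and megakaryocyte genes, 2 of 18 housekeeping genes, 0 of 12 B cell genes and 0 of 20 genes outside blood. Shares above that of all genes were thus not limited to the myeloid lists, and some lists share regions: 2 regions counted for the granule gene CTSG are those counted for GZMB of the NK list, which is its neighbour.

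**Figure D4:**
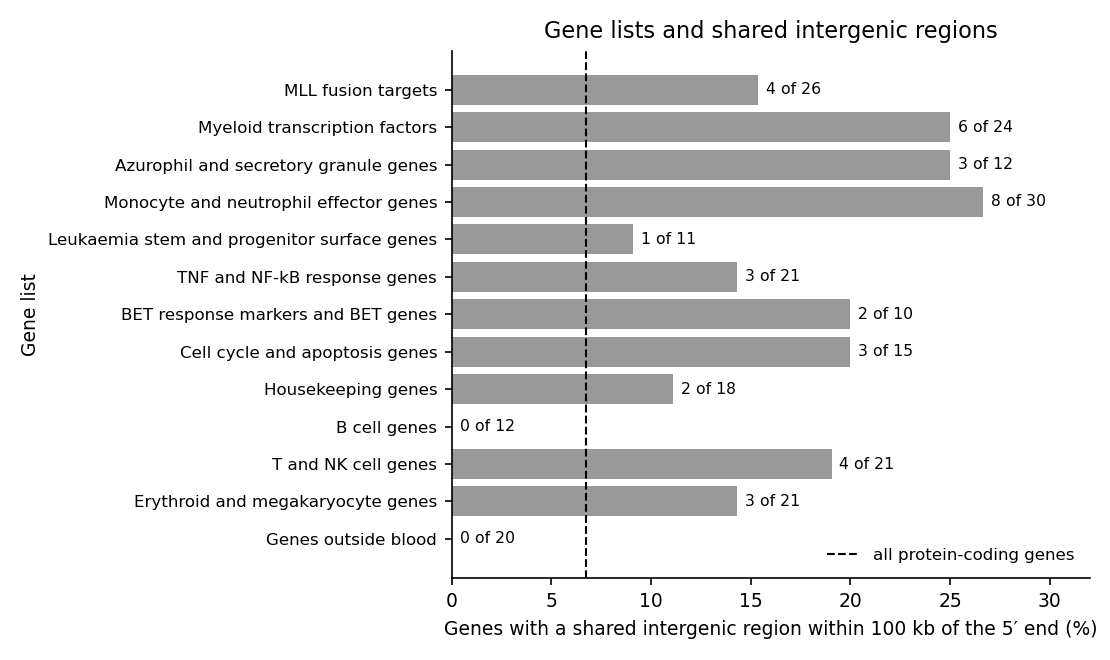
Bars give the percentage of the genes of each list on the 16 chromosomes that have a shared intergenic region within 100 kb of the 5′ end, with the counts beside them, and the dashed line is the 6.73% of all protein-coding genes. The monocyte and neutrophil list has 8 of 30, and the B cell list and the list of genes outside blood have none.

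The MLL fusion targets in reach were 4, and all 4 had less cover with the combination, beside 485 of 951 over all genes. MBNL1, a splicing regulator, had 4 regions 38.1 to 49.4 kb upstream with 9.96 kb under OTX015 and 8.83 kb under the combination. Its widest, chr3:152194519-152202584, had 7.93 and 6.65 kb, and 2 of the 4 were covered more with the combination. LMO2, a bridging protein of blood stem cell transcription complexes, had 5 regions 7.43 to 40.3 kb upstream with 6.80 kb and 6.33 kb. Its widest had 3.43 and 2.72 kb, but the farthest had 0.561 and 1.97 kb, and without the regions over noncoding genes the sum was 4.99 and 5.51 kb, the other direction. BMI1, a Polycomb protein of stem cell self-renewal, had 1 region with 1.84 kb and 1.09 kb. MED13L, a Mediator subunit, had 1 with 0.748 kb and 0.412 kb. Neither the BMI1 nor the MED13L region remained at a −log10 q of 2 or more. The other 22 targets on these chromosomes had no shared intergenic region within 100 kb.

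Of the 6 myeloid transcription factors in reach, IRF8, GFI1, FOS and SPI1 had more cover with the combination, and GATA2 and IKZF1 differed by less than 0.01 kb, beside 466 genes with more and 485 with less over all genes. IRF8 is described above. GFI1, a transcriptional repressor required for granulocyte development, had 1 region 24.7 kb downstream of its 5′ end, chr1:92457791-92462227. The region had 3.17 kb for OTX015 and 4.38 kb for the combination, with enrichments of 10.3 and 7.38. FOS, an AP-1 subunit, had 4 regions with 2.24 kb and 4.47 kb, led by chr14:75297357-75300059, 18.5 kb downstream, with 0.889 and 2.70 kb. None of the 4 FOS regions remained at a −log10 q of 2 or more. SPI1, which encodes PU.1, had 2 regions 18.5 and 21.1 kb upstream with 2.44 kb and 2.77 kb. At a −log10 q of 2 or more, its 1 remaining region had 1.97 and 1.51 kb. GATA2, a stem cell and mast cell factor, had 3 regions with 3.19 kb in either list, and IKZF1 (Ikaros) had 1 with 0.958 and 0.951 kb.

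All 3 granule genes in reach had more cover with the combination, beside 466 of 951 over all genes. This did not hold under every limit on peaks. SRGN encodes serglycin, the proteoglycan that packs granule proteases, and had 7 regions 9.98 to 29.1 kb upstream with 12.3 kb under OTX015 against 13.9 kb under the combination, 5 of the 7 more with the combination. The 2 SRGN regions left at a −log10 q of 2 or more had 6.56 and 6.18 kb, the other direction. LYZ had 2 regions with 2.12 and 2.68 kb, and CTSG, cathepsin G, 2 with 2.55 and 3.46 kb. The CTSG regions lay 83.8 and 86.0 kb from its 5′ end, but 25.9 and 28.1 kb from that of GZMB. None of the LYZ and CTSG regions remained at a −log10 q of 2 or more. LYZ, MEFV and TLR2, a sensor of bacterial lipoproteins, had the most cover among the effector genes when both lists were added, TLR2 with 1.15 and 2.01 kb in 1 region. CX3CR1, the fractalkine receptor of monocytes, had 0.616 and 2.41 kb in 2 regions. Of the 8 effector genes in reach, 6 had more cover with the combination, beside 466 of 951 over all genes, and FCER1G, an Fc receptor chain, and LGALS3, galectin-3, had less. The 6 include CCR2, which differed by 0.062 kb and had the other direction with peaks merged within 1 kb (3.09 and 3.02 kb), and none of the 8 kept a region at a −log10 q of 2 or more.

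In the remaining lists, CD34 was the 1 of 11 stem and progenitor surface genes in reach, with 0.822 kb and 1.29 kb. Of 21 TNF and NF-kB response genes, CXCL8, the neutrophil chemokine interleukin-8, had 0.992 and 1.04 kb in 1 region; CCL3 and CCL4 share 12 regions of the duplicated chemokine segment. The chemokine receptor genes CCR1 and CCR2 were 2 of 10 genes of the BET response list. They had 1.33 and 1.096 kb, and 1.54 and 1.61 kb. Both CCR1 regions are also counted for CCR2, which has 1 more region of 0.214 and 0.510 kb. Among 15 cell cycle and apoptosis genes, BCL2A1 and MCL1, both inhibitors of apoptosis, differed in opposite directions, with 0.219 and 1.83 kb for BCL2A1 and 1.11 and 0.219 kb for MCL1. CDKN2C, a CDK4 and CDK6 inhibitor, had 0.248 and 0.470 kb. The housekeeping genes B2M and GAPDH had 1.33 and 1.92 kb, and 1.38 and 0.621 kb, so differences of this size also occurred near genes of general function. No region of CD34, CXCL8, CCR1, CCR2, BCL2A1, MCL1, CDKN2C, B2M or GAPDH remained at a −log10 q of 2 or more.

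The T and NK list had CD247, CD7, GZMB and KLRB1 in reach, led by KLRB1 with 3.96 and 4.06 kb. The erythroid and megakaryocyte list had VWF with 0.117 and 0.642 kb, and ITGA2B and SLC4A1, which share 1 region of 1.78 and 2.62 kb. Antigen receptor genes are a separate case, since 10 shared regions overlapped antigen receptor loci, among them the 6 regions near DAD1 with 5.201 and 3.702 kb.

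Of 23 noncoding genes of blood cells on these chromosomes, 3 were overlapped by a shared intergenic region. The share over all noncoding genes is not given here, so the count says nothing about the list as a set. NEAT1, the long noncoding RNA that scaffolds paraspeckles, had chr11:65417646-65424881 over its 5′ end, with 6.68 kb under OTX015 and 6.92 kb under the combination, 1 peak each. LINC-PINT, a p53-induced long noncoding RNA, had 3 regions with 4.87 kb and 2.16 kb; they had 2.44 and 0.536 kb, 1.85 and 0.501 kb, and 0.584 and 1.12 kb. LINC00926 had 1 region with 2.69 and 2.74 kb.

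The 38 regions set apart had 58.4 kb of cover with OTX015 and 52.1 kb with the combination. Of these, 29 were pericentromeric, 7 of them with a peak of fold 6 or more, and 9 were repeat-like. The rule was coarse, because a fold of 6 also caught strong regions near genes. The highest of these was chr11:47387961-47396570, 9.41 kb upstream of SPI1, with 8.59 kb and 8.47 kb and enrichments of 16.2 and 12.1, above those of every one of the 756 regions. Others were chr11:65496074-65501007 over the 5′ end of MALAT1, a nuclear long noncoding RNA, with 4.09 and 4.93 kb, and chr3:46089907-46099679 near the chemokine receptor gene XCR1, with 8.77 and 7.99 kb. A narrower rule, chosen after seeing the data, returned 16 of the 38 regions and left the direction of the loci named here as it was.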

How the data were processed

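H3K27ac was measured by chromatin immunoprecipitation with Tn5 tagmentation, 1 library per treatment. Per the submitters' processing notes, reads were handled with bcl2fastq 2.17, Trimmomatic 0.33, Bowtie 1.1.2 and MACS2 2.1.0 on GRCh38; the order and settings are not given in the sources used here. The authors deposited 1 broad peak list per library with a score, a fold (the ratio of pileup to background), a −log10 q and a −log10 p per peak. The deposited score was not used further.

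Peaks were merged where they overlapped by at least 1 bp. The background was solved from the lowest fold and −log10 p of each list with a pseudocount of 1. Gene positions came from RefSeq (GRCh38.p14). Of 14132 protein-coding genes, 11515 took their strand from the RefSeq promoter table and 2424 from GENCODE by symbol, and for 193 both ends were used. Regions were set apart within 5 Mb of a centromere, in the gene-free stretch or acrocentric arm around it, at a fold of 6 or more, or over rRNA genes.

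With 1 library per treatment no test was made and no p-value is given. The regions and the 14 gene lists were chosen with earlier results of these data known. Named regions are the 12 widest by the smaller cover, the 8 with the largest excess in each direction, the 8 with the highest mean enrichment, those near MLL fusion targets and myeloid transcription factors or over listed noncoding genes, and the 3 on each side of the 2.5 kb limit. A region and a marker that these rules name are not reported here. Of other lists the 3 genes with most cover are named, and clusters, other list genes and set-apart regions were named after their values were seen. Merging, classification and the background solution were checked on simulated data with known answers. Scripts ran in Python 3.11.15 with pandas 2.3.3, numpy 2.4.6, statsmodels 0.14.6, scipy 1.17.1 and, for figures, matplotlib 3.10.9.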

Additional observations from a re-analysis of the deposited data

How the results depend on the processing

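With 1 library per treatment, no library could be left out. No paired analysis was possible because each treatment had 1 library and no test was made. At a −log10 q of 2 or more, 118 regions remained, the cover ratio was 0.921, and 22 and 10 regions had at least 2-fold more cover with OTX015 and with the combination. At a common enrichment, which by construction removes combination peaks only, 64 regions remained, with a cover ratio of 0.869, a median enrichment ratio of 0.786 and 9 and 4 regions past 2-fold. When the bodies of all annotated genes were avoided, 486 regions remained and 91 had at least 2-fold more cover with the combination. Within 50 kb and 250 kb, 485 and 2211 genes had a region in reach. The cover ratio lay on either side of 1 across alternatives, so no direction is given to the total. Of 93 named genes, clusters and regions, 49 still had a region at a −log10 q of 2 or more and 11 of them turned direction; 39 and 12 did at a common enrichment, 89 and 10 with peaks merged within 1 kb, 70 and 7 with all gene bodies avoided, and 90 and 1 with 50% overlap. None turned with equal peak numbers, the 10 kb distance, the set-apart regions kept, or the 3 alternatives chosen after seeing the data (the narrower rule, and leaving out antigen receptor loci or the duplicated chemokine segment).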
